A study of Saccharomyces cerevisiae with 8 samples.

Results

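The genes described are 7 yeast stress genes, RTC3, SPI1, DDR2, HSP12, CTT1, ALD3 and YGP1, together with MSN2 and MSN4, the activators that switch such genes on. These 9 genes, of 5449 Saccharomyces cerevisiae genes with a probe set, were chosen by gene name with the signals of the double deletion and the wild type known. Their differences between those strains are therefore given as a description, without a test. The strains were the double deletion, 6EA1, which lacks both RPL12A and RPL12B, the gene pair for one protein of the large ribosomal subunit; 6EA1 carrying RPL12A on a high copy plasmid (plus RPL12A); 6EA1 carrying RPL12B on such a plasmid (plus RPL12B); and the wild type, W303, the background of all 4. Each strain was measured on 2 Affymetrix arrays, from cultures titled biological replicates. All were grown at 30 °C in yeast nitrogen base medium with 2% glucose and harvested in early log phase, at an A600 of 0.5 to 0.6. 6EA1 is a single strain, none of the 8 samples was 6EA1 with an empty plasmid, and the supplements given to each strain are not stated in the sources used here.

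Msn2 and Msn4 are related zinc finger proteins that bind the stress response element of yeast promoters. In cells growing on glucose, protein kinase A, which is activated through Ras and cyclic AMP, keeps them largely out of the nucleus and inactive. Heat, oxidants, osmotic shock or starvation let them enter the nucleus, where they switch on a broad set of protective genes. Their activity is set mainly by where the proteins are and how they are phosphorylated, which arrays of messenger RNA do not measure.

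The labels were checked on the deleted genes. RPL12A gave a signal of 17.8 ± 15.5 (SD, n = 2 arrays, as for every SD here) in the double deletion, 5906 ± 246 in plus RPL12A, 11.9 ± 5.21 in plus RPL12B and 5295 ± 36.7 in the wild type. RPL12B gave 9.52 ± 11.05 in the double deletion, 34.3 ± 20.1 in plus RPL12A, 5957 ± 691 in plus RPL12B and 6788 ± 355 in the wild type. The signals are MAS5 values on a linear scale, and are compared between strains for one gene, never between genes. Background, the 95th percentile of the probe sets for the fission yeast Schizosaccharomyces pombe, lay between 7.42 and 8.72. Each of the 9 genes had 1 probe set and passed the filter on low values. None of their signals was under background, and the lowest was 57.0. The arrays fell into 2 kinds by a control probe set for 25S ribosomal RNA. Its signal was 4319 and 3947 in the double deletion, 5720 and 277 in plus RPL12A, 4933 and 312 in plus RPL12B, and 2476 and 148 in the wild type, replicate 1 first. Each array averages over a culture, so a higher level in every cell and a larger share of cells with a high level cannot be told apart.

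All 7 stress genes had higher signals on both double deletion arrays than on either wild type array, by amounts that ran between 1.26-fold for HSP12 and 9.94-fold for RTC3. Their signals in both plasmid strains were also above the wild type on every array. The median log2 difference of the 7 between double deletion and wild type was 1.95, beside 0.14 over all 5439 genes tested. With MSN2 and MSN4 included, 9 of 9 genes were higher without overlap of the arrays, as were 47.3% of all genes tested. This follows from how the genes were chosen and is read no further.

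RTC3 encodes a small protein that resembles part of the Shwachman-Bodian-Diamond protein family. Its signal was 3596 and 2465 in the double deletion, 1698 and 3356 in plus RPL12A, 1639.9 and 4434 in plus RPL12B, and 265 and 339 in the wild type. All 6 arrays of strains made from 6EA1 were above both wild type arrays, and those 6 overlapped among themselves. The double deletion minus wild type difference was 3.31 on the log2 scale (SE 0.49).

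Other members encode proteins of the cell surface or small stress proteins of unclear function. SPI1, a cell wall protein held by a glycolipid anchor, gave 1115 and 971 in the double deletion, 853 and 1584 in plus RPL12A, 776 and 2053 in plus RPL12B, and 197 and 214 in the wild type. The double deletion arrays lay between those of each plasmid strain, and its log2 difference from the wild type was 2.34 (SE 0.45). DDR2, a small protein first known from DNA damage, gave 2272 and 1552 in the double deletion, 2213 and 2125 in plus RPL12A, 2293 and 3029.9 in plus RPL12B, and 324 and 591 in the wild type. Plus RPL12B had the highest pair and the wild type the lowest, with a double deletion minus wild type difference of 2.10 (log2, SE 0.30). YGP1, a secreted glycoprotein that yeast makes when nutrients run short, gave 4213 and 3997 in the double deletion, 4026 and 4105 in plus RPL12A, 4107 and 4139.8 in plus RPL12B, and 1325 and 1131 in the wild type. Its 6 arrays from 6EA1 strains formed one narrow group above the wild type, and the difference of double deletion and wild type was 1.75 (log2, SE 0.087).

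HSP12 encodes a small, membrane-associated stress protein. Its signal was 5417 and 4658 in the double deletion, 5809 and 5722 in plus RPL12A, 5212 and 6123 in plus RPL12B, and 3726 and 4244 in the wild type. The strains did not overlap with the wild type, but the double deletion minus wild type difference was only 0.34 (log2, SE 0.11). The highest signal on an array was between 6841 and 8915, and it was not tested whether arrays this bright would still register more HSP12 mRNA. HSP12 also moved with the scaling of the arrays. Centred on the S. cerevisiae median, the difference was 0.14. Quantile normalization gave 0.60, and scaling to the hybridisation controls gave 0.74.

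The remaining stress genes encode enzymes. CTT1, the cytosolic catalase that breaks down hydrogen peroxide, gave 864 and 496 in the double deletion, 412 and 847 in plus RPL12A, 366 and 1439 in plus RPL12B, and 179.7 and 159.8 in the wild type. ALD3, a cytosolic aldehyde dehydrogenase, gave 252 and 149 in the double deletion, 129 and 168 in plus RPL12A, 113 and 355 in plus RPL12B, and 59.5 and 57.0 in the wild type. Every array of a 6EA1 strain was above the wild type for both enzymes, while the arrays of the plasmid strains lay on either side of one or both double deletion arrays. The double deletion minus wild type difference was 1.95 (log2, SE 0.64) for CTT1 and 1.74 (SE 0.51) for ALD3.

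**Figure D1:**
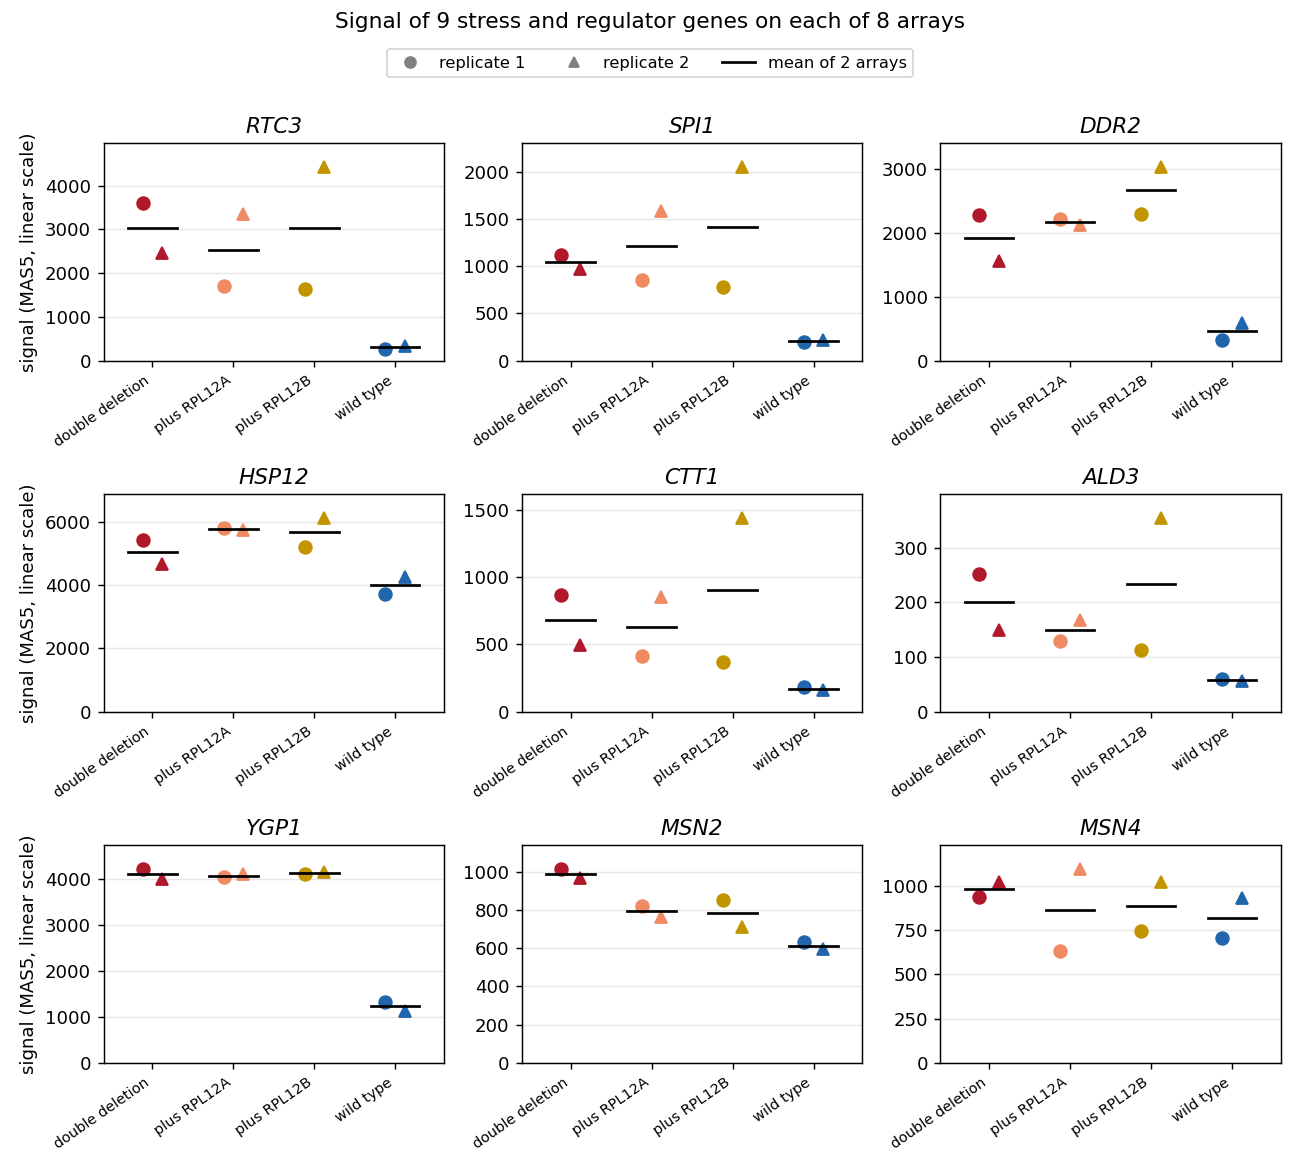
Signal (MAS5, linear scale from 0, own axis per gene) of the 9 genes on each of the 8 arrays, by strain, with circles for replicate 1, triangles for replicate 2 and a bar at the mean. The 7 stress genes are lowest in the wild type, YGP1 varies least among the 6 arrays of 6EA1 strains, and CTT1 lies at 366 and 1439 in plus RPL12B.

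MSN2 was itself somewhat higher in the double deletion. Its signal was 1018 and 967 in the double deletion, 821 and 767 in plus RPL12A, 854 and 713 in plus RPL12B, and 634 and 594 in the wild type. No double deletion array overlapped with another strain, both plasmid strains lay between, and the log2 difference of double deletion and wild type was 0.69 (SE 0.13). MSN4, which is itself known to be induced by stress, gave 940.4 and 1023 in the double deletion, 634 and 1099.7 in plus RPL12A, 748 and 1024 in plus RPL12B, and 709 and 931 in the wild type. Its double deletion minus wild type difference was 0.27 (log2, SE 0.28), less than the spread of its arrays within plus RPL12A.

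Each plasmid strain was set against the double deletion, the strain it was made from. These comparisons share the double deletion arrays with the contrast known when the genes were chosen. None of the 9 genes was called by limma in either one, at an adjusted p of 0.05. The share of all genes called in either direction was 0.221% for plus RPL12A and 0.110% for plus RPL12B. At an unadjusted p of 0.05, 1 of the 9 genes, MSN2, passed in each, and it was lower, beside 15.7% of all genes in plus RPL12A and 7.21% in plus RPL12B. The median log2 difference of the 7 stress genes was -0.014 for plus RPL12A, beside -0.094 over all genes, and 0.15 for plus RPL12B, beside -0.064.

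The intervals of these differences differed widely between genes. For YGP1 the plus RPL12A minus double deletion difference was -0.014 (95% interval -0.22 to 0.19, adjusted p = 0.940) and that of plus RPL12B 0.0068 (-0.20 to 0.21, adjusted p = 0.981), on the log2 scale. The wild type level of YGP1, 1.75 log2 units below the double deletion, lay outside both intervals. The same held for each other stress gene and its own intervals. These wild type levels come from the contrast known when the genes were chosen and have errors of their own, so this is a description. RTC3 differed by -0.32 in plus RPL12A (-1.48 to 0.84) and by -0.14 in plus RPL12B (-1.31 to 1.02). SPI1 gave 0.16 (-0.90 to 1.22) in plus RPL12A and 0.28 (-0.79 to 1.34) in plus RPL12B. CTT1 had the widest intervals, with -0.15 (-1.64 to 1.35) in plus RPL12A and 0.15 (-1.34 to 1.64) in plus RPL12B. ALD3 gave -0.40 (-1.60 to 0.81) in plus RPL12A and 0.043 (-1.16 to 1.25) in plus RPL12B. Both CTT1 intervals, and those of RTC3 and ALD3 in plus RPL12B, take in 2-fold changes in either direction. Such changes were therefore not excluded there with 2 arrays a strain.

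DDR2 and HSP12 had positive differences in both plasmid strains, none of them called. DDR2 differed from the double deletion by 0.21 (-0.50 to 0.91) in plus RPL12A and by 0.49 (-0.22 to 1.20) in plus RPL12B. HSP12 differed by 0.20 (-0.056 to 0.45) in plus RPL12A and by 0.17 (-0.085 to 0.42) in plus RPL12B. The arrays did not overlap for HSP12 in plus RPL12A, a pattern of 17.0% of all genes there, nor for DDR2 in plus RPL12B, where it held for 12.3%.

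MSN2 was lower than in the double deletion on all 4 plasmid strain arrays. The difference was -0.32 in plus RPL12A (95% interval -0.62 to -0.028, adjusted p = 0.292 by limma) and -0.35 in plus RPL12B (-0.64 to -0.052, adjusted p = 0.642). Lower arrays without overlap were found for 34.5% of all genes in plus RPL12A and for 25.7% in plus RPL12B. These MSN2 values are those of the deposited scaling. S. cerevisiae median centring moved the all-gene median against the double deletion from -0.094 to 0.030 in plus RPL12A. In plus RPL12B it moved from -0.064 to 0.023. MSN2 intervals after that centring are not given here. MSN4 differed by -0.23 (-0.89 to 0.43) in plus RPL12A and by -0.16 (-0.82 to 0.49) in plus RPL12B.

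**Figure D2:**
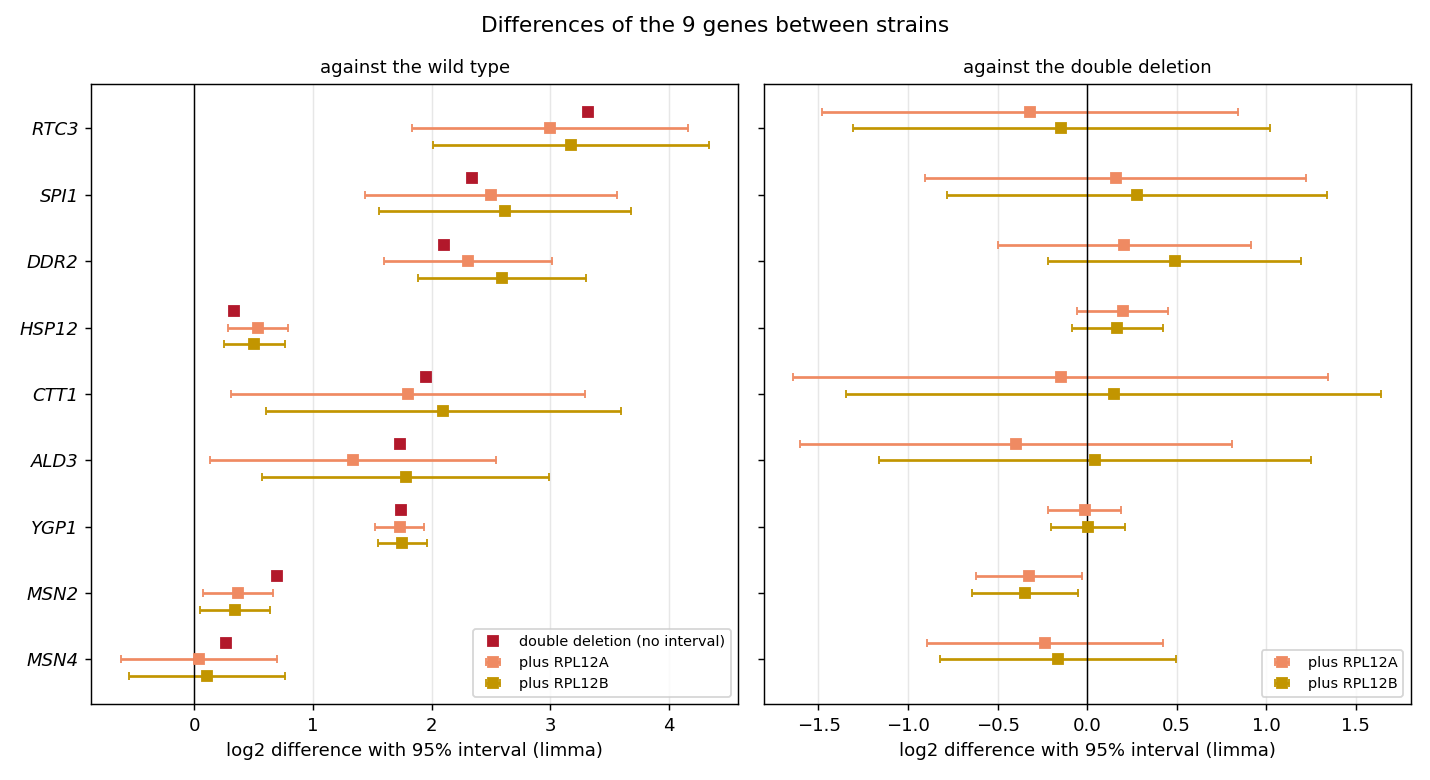
Log2 differences of the 9 genes against the wild type (left) and against the double deletion (right), with 95% limma intervals. The double deletion has points without an interval on the left. On the right only the intervals of MSN2 leave out 0, in the deposited scaling.

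Against the wild type, 5 of the 9 genes were called higher in plus RPL12A and 5 in plus RPL12B, the same 5 in both, RTC3, SPI1, DDR2, HSP12 and YGP1. Of all genes, 2.22% were called higher in plus RPL12A and 5.59% in plus RPL12B. The wild type arrays are those of the contrast known when the genes were chosen, so these values are not independent of it. The arrays of 8 genes were higher without overlap in each plasmid strain, beside 33.3% of all genes in plus RPL12A and 35.3% in plus RPL12B, and the exception was MSN4 both times.

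RTC3 was higher than in the wild type by 2.99 in plus RPL12A (log2, SE 0.49, adjusted p = 0.0312) and by 3.17 in plus RPL12B (adjusted p = 0.0205). SPI1 was higher by 2.50 (SE 0.45, adjusted p = 0.0377) in plus RPL12A and by 2.62 (adjusted p = 0.0228) in plus RPL12B. DDR2 was higher by 2.31 (SE 0.30, adjusted p = 0.0203) in plus RPL12A and by 2.59 (adjusted p = 0.00963) in plus RPL12B. YGP1, the most evenly measured gene, was higher by 1.73 (SE 0.087, adjusted p = 0.000794) in plus RPL12A and by 1.75 (adjusted p = 0.000731) in plus RPL12B. HSP12 passed with smaller differences of 0.54 (SE 0.11, adjusted p = 0.0459) in plus RPL12A and 0.51 (adjusted p = 0.0370) in plus RPL12B. Centred on the S. cerevisiae median, HSP12 was not called, at 0.46 (adjusted p = 0.0778 by limma) in plus RPL12A and 0.39 (adjusted p = 0.0747) in plus RPL12B. CTT1 and ALD3 were not called. Their differences in plus RPL12A were 1.80 (adjusted p = 0.138) and 1.34 (adjusted p = 0.164), and in plus RPL12B 2.10 (adjusted p = 0.0770) and 1.78 (adjusted p = 0.0701). With the 25S split of the arrays as a block, CTT1 was called in plus RPL12A (adjusted p = 0.0481) and in plus RPL12B (adjusted p = 0.0246), and ALD3 in plus RPL12B (adjusted p = 0.0277). Scaling to the hybridisation controls called the same genes there, at an adjusted p of 0.0494 for CTT1 in plus RPL12A and of 0.0304 for CTT1 and 0.0278 for ALD3 in plus RPL12B.

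The YGP1 call stood in both plasmid strains under each of 24 alternative settings, with log2 differences of 1.60 to 1.98 in plus RPL12A and 1.63 to 2.00 in plus RPL12B. The other 4 calls depended on single arrays. In plus RPL12A, YGP1 alone was called without wild type replicate 1 or either plus RPL12A array, and DDR2 and YGP1 without wild type replicate 2 or either double deletion array. Leaving out a double deletion array kept these differences as they were (RTC3 2.99, adjusted p = 0.0586 by limma). Only the shared estimate of the spread and its degrees of freedom changed. In plus RPL12B, YGP1 alone was called without plus RPL12B replicate 2, where the adjusted p was 0.0517 for RTC3, 0.0571 for SPI1 and 0.0513 for DDR2. DDR2 and YGP1 were called there without either wild type array. Leaving out plus RPL12B replicate 2 gave 2.45 for RTC3, 1.92 for SPI1, 1.11 for CTT1 and 0.95 for ALD3, and leaving out replicate 1 gave 3.89 for RTC3, 3.32 for SPI1, 3.09 for CTT1 and 2.61 for ALD3.

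MSN2 and MSN4 were not called against the wild type in either plasmid strain. MSN2 differed by 0.37 (95% interval 0.076 to 0.67, adjusted p = 0.126 by limma) in plus RPL12A and by 0.35 (0.052 to 0.64, adjusted p = 0.112) in plus RPL12B. With the arrays scaled to the hybridisation controls, MSN2 was called higher in plus RPL12A (0.62, adjusted p = 0.0420) and in plus RPL12B (0.59, adjusted p = 0.0404). MSN4 differed by 0.039 (-0.62 to 0.70, adjusted p = 0.943) in plus RPL12A and by 0.11 (-0.55 to 0.77, adjusted p = 0.817) in plus RPL12B.

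Plus RPL12B and plus RPL12A were then compared with each other, the one pair that shares no array with the contrast behind the choice of genes. None of the 9 genes was called by limma, beside 0.0184% of all genes, and none passed an unadjusted p of 0.05, beside 1.71% of all genes. YGP1 differed by 0.020 (log2, 95% interval -0.19 to 0.23) and HSP12 by -0.029 (-0.28 to 0.23), so a 2-fold difference lay outside both intervals. RTC3 differed by 0.18 (-0.99 to 1.34), SPI1 by 0.12 (-0.94 to 1.18), DDR2 by 0.28 (-0.43 to 0.99), CTT1 by 0.30 (-1.20 to 1.79) and ALD3 by 0.44 (-0.77 to 1.65). MSN2 differed by -0.024 (-0.32 to 0.27) and MSN4 by 0.069 (-0.59 to 0.73).

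The 7 stress genes differed in how far the arrays of one strain lay apart. In plus RPL12B, CTT1 was 3.94-fold apart, ALD3 3.16-fold, RTC3 2.70-fold and SPI1 2.65-fold, whereas YGP1 was 1.01-fold apart. Those 4 genes exceeded the 95th percentile of all genes in that strain, a log2 spread of 0.95. In plus RPL12A 3 of the 7 exceeded the percentile there, 0.83, with CTT1 2.06-fold, RTC3 1.98-fold and SPI1 1.86-fold apart. In the double deletion 2 of 7 exceeded it, CTT1 and ALD3, and in the wild type 1 of 7, DDR2, at 1.82-fold.

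Replicate 2 was the higher array for 7 of the 7 stress genes in plus RPL12B and for 5 of 7 in plus RPL12A. It was higher for 0 of 7 in the double deletion and for 4 of 7 in the wild type. The share of all genes with a higher replicate 2 is not given here, so these counts are a description. The mean centred log2 signal of the 7 genes was 0.68 and 0.23 on the double deletion arrays, 0.18 and 0.65 on those of plus RPL12A, 0.092 and 1.11 on those of plus RPL12B, and -1.55 and -1.40 on those of the wild type. Replicate 2 of plus RPL12A, plus RPL12B and wild type were also the 3 arrays with a low 25S signal, at 277, 312 and 148. With the 25S split as a block, 6 of the 9 genes were called higher than in the wild type in plus RPL12A and 7 in plus RPL12B, beside 5 in each without it. Over all genes the calls were then 728 in plus RPL12A and 1219 in plus RPL12B, beside 216 and 516 without the block. With only the 5 arrays of high 25S signal, an alternative chosen after seeing the data, RTC3, SPI1, DDR2 and YGP1 were still called higher than in the wild type in both plasmid strains. HSP12 was then not called, at an adjusted p of 0.171 in plus RPL12A and 0.217 in plus RPL12B. In that fit each plasmid strain and the wild type has a single array, assumed to vary like those of the double deletion.

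**Figure D3:**
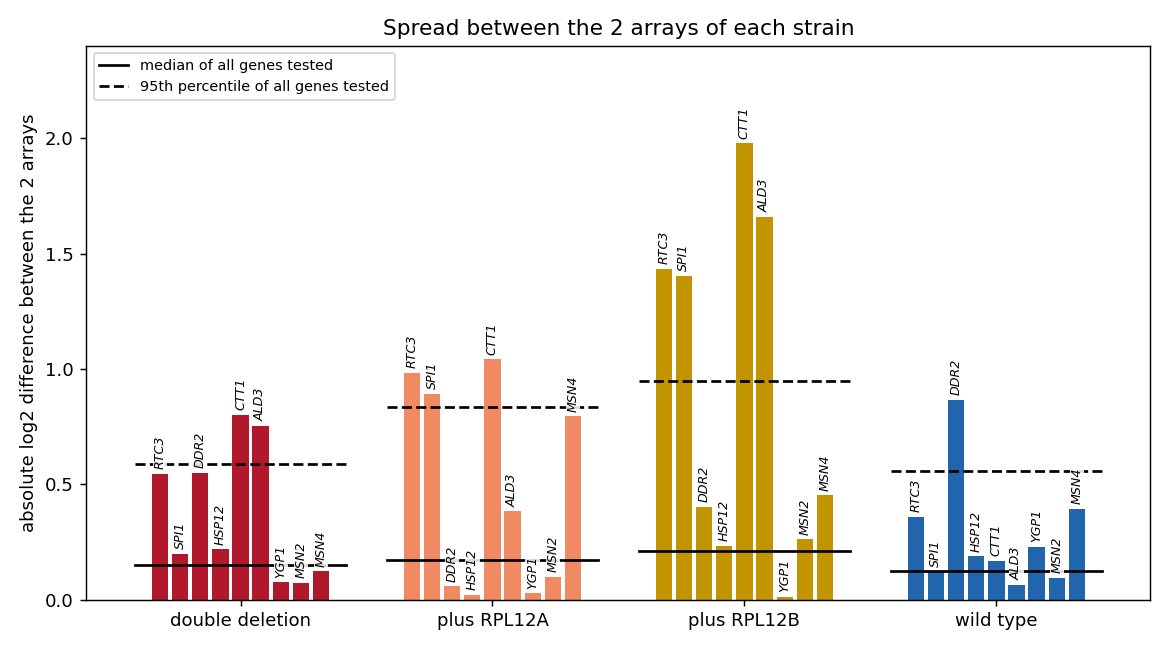
Absolute log2 difference between both arrays of a strain for each of the 9 genes, with the median (line) and the 95th percentile (dashed) of all 5439 genes tested. RTC3, SPI1, CTT1 and ALD3 are above the dashed line in plus RPL12B, where YGP1 has the shortest bar.

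Among the 6 arrays of 6EA1 strains, RTC3, SPI1, CTT1 and ALD3, a set chosen after their values were seen, went up and down together. Pearson's r of their log2 signals ran between 0.83 and 0.97 over the 6 pairs of genes. YGP1 with each of the other 6 stress genes had r of 0.40 to 0.63. MSN2 had r of -0.75 to 0.035 with the 7 stress genes, and MSN4 -0.093 to 0.82. These are descriptions over 6 arrays that share strains, scaling and, for 2 of them, the low 25S signal.

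Over all 8 arrays, the genes whose log2 signals most resembled the mean of the 7 stress genes were YPT53 (r = 0.99), SSH4 (0.99), AIM41 (0.99), GCY1 (0.99) and GUT2 (0.98). Over the 6 arrays of 6EA1 strains their r was 0.94, 0.95, 0.97, 0.90 and 0.93. The r over 8 arrays takes in the gap to the wild type, which was known when the stress genes were chosen. These genes were also picked as the highest of all genes tested, so their r is a description. YPT53, for instance, averaged 85.9 in the double deletion, 85.7 in plus RPL12A, 93.6 in plus RPL12B and 27.9 in the wild type. Most like MSN2 were YHL017W, SNQ2 and VPS52, each at r = 0.99, and most like MSN4 were SSK1 (0.96), YSC83 (0.96) and HYM1 (0.95). Over the 6 arrays r was 0.99, 0.99 and 0.98 for the first list and 0.96, 0.98 and 0.99 for the second. SNQ2 averaged 1865 in the double deletion, 1310.1 in plus RPL12A, 1379 in plus RPL12B and 968 in the wild type.

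None of 5 genes that resemble a stress gene was called higher in the double deletion and 2 were called lower, beside 20.4% of all genes called higher and 12.2% called lower. HOR7, which encodes a protein much like that of DDR2, gave 3851 and 3944 in the double deletion, 4252 and 4511 in plus RPL12A, 4041 and 4325 in plus RPL12B, and 4567 and 4503 in the wild type. SED1, a cell wall protein related to SPI1, gave 5005 and 5572 in the double deletion, 6110.02 and 6303 in plus RPL12A, 5236 and 5931 in plus RPL12B, and 6314 and 6550 in the wild type. Both were below the wild type in the double deletion, HOR7 by limma at -0.22 (log2, SE 0.063, adjusted p = 0.0360) and SED1 at -0.28 (SE 0.079, adjusted p = 0.0327). This direction rested on the scaling, since HOR7 gave 0.049 and SED1 0.012 after quantile normalization. Scaled to the hybridisation controls, HOR7 gave 0.18 and SED1 0.12, and none of these 4 values was called. That scaling called SPS100 (1.18) and CTA1 (0.67) higher. ALD2, the neighbour of ALD3 and a like enzyme, differed by -0.12 (adjusted p = 0.694), SPS100, a spore wall protein related to YGP1, by 0.78 (adjusted p = 0.135), and CTA1, the peroxisomal catalase, by 0.26 (adjusted p = 0.348).

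In the double deletion, 5 of 36 other genes known as targets of Msn2 and Msn4 were called above the wild type and 2 below it, with a median log2 difference of 0.73. The share called higher was not above the 20.4% of all genes. Quantile normalization gave 2 higher and 1 lower, centring on the S. cerevisiae median 4 and 2, and scaling to the hybridisation controls 18 and 1. GPX1, a glutathione peroxidase, was higher by 1.85 (SE 0.43, adjusted p = 0.0188), NQM1, a transaldolase, by 1.57 (SE 0.21, adjusted p = 0.00481) and TFS1, an inhibitor of a vacuolar protease, by 1.11 (SE 0.31, adjusted p = 0.0343). APE1, a vacuolar aminopeptidase, was lower at -1.16 (SE 0.24, adjusted p = 0.0139). This list and the other 6 were chosen with earlier results of these data known. Most genes named from them were picked for a large called difference between double deletion and wild type. Adjusted p-values of list genes in that contrast are therefore a description. In plus RPL12A the list had 1 gene called higher and 1 lower than in the wild type, NQM1 at 1.61 (adjusted p = 0.0192) and APE1 at -1.32 (adjusted p = 0.0379). All genes called there were 2.22% higher and 95 of 5439 lower. In plus RPL12B the list had 5 higher, among them GPX1 at 1.83 (adjusted p = 0.0434) and NQM1 at 1.90 (adjusted p = 0.00859), and 1 lower, APE1 at -1.20 (adjusted p = 0.0327). All genes called in plus RPL12B were 5.59% higher and 212 of 5439 lower. In plus RPL12A the calls of NQM1 stood in 18 and those of APE1 in 15 of the 24 alternatives, and in plus RPL12B those of NQM1 in 21, APE1 in 15 and GPX1 in 11. The list medians were 0.80 in plus RPL12A, beside 0.040 over all genes, and 0.93 in plus RPL12B, beside 0.069. Against the double deletion, no gene of this list or of the other 6 lists was called in either plasmid strain. Of all genes, 0.221% were called there in plus RPL12A and 0.110% in plus RPL12B. Among the genes named from these lists, NQM1, PDE1 and HSF1 kept their call in the double deletion under all 24 alternatives, and each of the other called ones lost it in at least 3.

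The Ras and protein kinase A pathway, which holds Msn2 and Msn4 back, was measured through 14 genes. In the double deletion 5 were called above the wild type and 1 below it, beside 20.4% and 12.2% of all genes. The median of the 14 was 0.22, and 0.020 when arrays were centred on the S. cerevisiae median. That centring and quantile normalization each gave 2 higher and 1 lower, and scaling to the hybridisation controls gave 8 and 0. PDE1, which breaks down cyclic AMP, was higher by 0.99 (SE 0.13, adjusted p = 0.00481), and CYR1, which makes it, was higher by 0.89 (SE 0.18, adjusted p = 0.0142). IRA2, which turns Ras off, was higher by 0.46 (SE 0.093, adjusted p = 0.0132), and RAS1 was lower at -0.69 (SE 0.17, adjusted p = 0.0222). As for the other lists, these adjusted p-values are a description. PDE1 had signals of 1741 and 1515 in the double deletion, 1365 and 1478 in plus RPL12A, 1297 and 1430.4 in plus RPL12B, and 748 and 896 in the wild type. PDE1 was also called higher than in the wild type in plus RPL12A (0.80, adjusted p = 0.0300) and plus RPL12B (0.73, adjusted p = 0.0236). It lost that call in plus RPL12A without 6 of the 8 arrays and in plus RPL12B without 3 of them.

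Other regulators of Msn2 and Msn4, among them kinases, phosphatases and the exporter Msn5, showed 1 gene of 20 called higher in the double deletion and 0 lower. Of all genes, 20.4% were called higher and 12.2% lower. The count among the 20 was 1 higher and 2 lower with S. cerevisiae median centring, beside 548 and 1206 over all genes. It was 16 and 0 when scaled to the hybridisation controls, where 2823 of all 5439 genes tested were called higher. The gene called in the deposited scaling was SSN8, a cyclin of the Mediator complex, higher by 1.13 (SE 0.26, adjusted p = 0.0193). The median of these 20 was 0.13, beside 0.14 over all genes, and -0.073 when arrays were centred on the S. cerevisiae median.

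**Figure D4:**
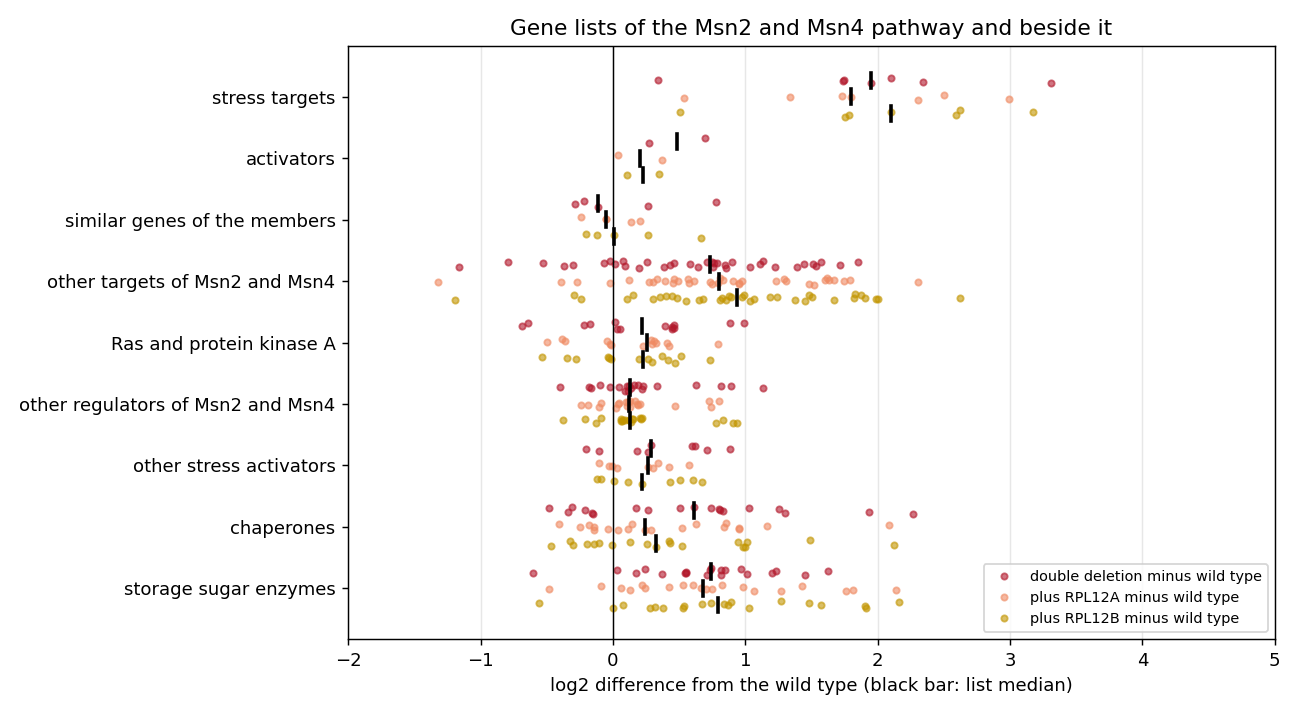
Log2 difference from the wild type of each gene in the 9 gene lists, for the double deletion, plus RPL12A and plus RPL12B, with a black bar at each list median. The stress targets have medians of 1.95, 1.80 and 2.10, and the other targets of Msn2 and Msn4 0.73, 0.80 and 0.93.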

How the data were processed

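Biotin cRNA was made from 10 ug of RNA of each of 8 cultures. As intensity, the authors deposited linear MAS5 signals, 1 per probe set for every array. MAS5 is named in the submitters' processing notes, with no version. The 2% trimmed mean of every array was 500.2, so differences are relative to the bulk of probe sets. Raw array files were not used here.

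Log2 of these signals was fitted with limma 3.58.1 in R 4.3.3 (lmFit, eBayes with trend), as a mean per strain over 8 arrays with 4 residual and 3.23 prior degrees of freedom. Tests were 2-sided, with Benjamini-Hochberg adjustment over 5439 genes within each of 6 comparisons and a threshold of 0.05. A gene had to exceed background on at least 2 arrays, which left out 10 genes, and was read from its brightest probe set by mean log2 signal. Symbols came from the platform annotation, updated through RefSeq. An exact 2-sided test of 2 arrays against 2 gives p = 0.333 at best, and the number of arrays limits the precision.

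The genes and the other 7 lists were chosen with earlier results of these data known. Adjusted p-values of list genes between double deletion and wild type are therefore a description. The naming rule took all 9 genes, up to 4 genes per list with the largest called differences between double deletion and wild type, the similar genes and HSF1 in any case, and the 5 or 3 genes with the highest r. No set test was run. The fit was tested on simulated data. Alternatives were other scalings, a pseudocount of 16, a floor, no filter and the 99th percentile, other variance settings, blocks, a threshold of 0.01 and leaving out each array. Python 3.11.15 and matplotlib 3.10.9 drew the figures.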

Additional observations from a re-analysis of the deposited data

How the results depend on the processing

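In all 24 alternatives (22 planned, 2 chosen after seeing the data), 0 of the 9 genes were called in plus RPL12A or plus RPL12B against the double deletion, or between the plasmid strains. Between double deletion and wild type, the contrast known when the genes were chosen, the count past the threshold supports nothing. It was 6, and 2 to 8 when single arrays were left out, with 2 without double deletion replicate 1 and 3 without wild type replicate 2. Over all genes it was 1770, and 238 to 1965 when single arrays were left out. In plus RPL12A against the wild type the 5 became 2 with quantile normalization, 2 without a variance trend and 1 at a threshold of 0.01, and 1 to 7 when single arrays were left out. Over all genes the 216 calls there became 78, 103 and 13, and 12 to 281 when single arrays were left out. In plus RPL12B against the wild type the 5 became 8 with hybridisation control centring, 2 with the 4 compared arrays alone and 2 at a threshold of 0.01, and 1 to 7 when single arrays were left out. Over all genes the 516 calls there became 1027, 32 and 27, and 14 to 263 when single arrays were left out. The cause of these changes was not tested. Fewer arrays and a stricter threshold are part of some of these settings themselves.

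Differences called in no setting changed sign in 13 of 216 values for plus RPL12A against the double deletion, 22 for plus RPL12B, and 24 between the plasmid strains. Against the wild type 5 in plus RPL12A and 4 in plus RPL12B did so, all of MSN4, and 0 in the double deletion. After quantile normalization SED1 in the double deletion turned to 0.012 and HOR7 to 0.049, and scaled to the hybridisation controls SED1 turned to 0.12 and HOR7 to 0.18; the cause was not tested.

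The scaling moved all genes. The median double deletion minus wild type difference over all genes was 0.14 as deposited, -0.060 after centring each array on its S. cerevisiae median, -0.0028 under quantile normalization and 0.54 on hybridisation controls, while that of the 7 stress genes was 1.95, 1.75, 1.88 and 2.35. All genes called higher and lower numbered 1109 and 661, 548 and 1206, 397 and 437, and 2823 and 65 in these scalings.

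Replicate numbers were not taken as pairs, since the labels name no shared batch and each strain has 2. The correlation of deviations between same-numbered arrays was 0.79 for the plasmid strains and 0.050 to 0.41 for the others. With the replicate block, 5 of the 9 genes were called in each plasmid strain against the wild type. The count was 0 in the comparisons with the double deletion or between the plasmid strains. Over all genes the block moved the calls of plus RPL12A against the double deletion to 79, beside 12 without it. It moved those of plus RPL12B to 17, beside 6. Against the wild type, calls over all genes were then 719 in plus RPL12A and 1219 in plus RPL12B, beside 216 and 516. A planned check of promoter windows was not run, as no sequence table was used here. Signals of all 9 genes were above background on every array. For ALD3, which had the lowest, a pseudocount of 16 still moved the difference from the wild type. It went from 1.34 to 1.14 in plus RPL12A and from 1.78 to 1.56 in plus RPL12B.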

Other observations

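Chaperones, which help proteins fold and are driven largely by the heat shock factor Hsf1 rather than by Msn2 and Msn4 alone, changed in both directions in the double deletion under the deposited scaling. Of 19 chaperone genes, 7 were called higher and 4 lower than in the wild type, with a median log2 difference of 0.61, beside 20.4% of all genes called higher and 12.2% called lower. This split rested on the scaling, with 3 higher and 6 lower after S. cerevisiae median centring, 3 and 0 after quantile normalization, and 13 and 0 when scaled to the hybridisation controls. HSP42, a small chaperone that gathers misfolded proteins, gave 1776 and 889 in the double deletion, 726 and 1701 in plus RPL12A, 602 and 2142 in plus RPL12B, and 295 and 231 in the wild type (double deletion minus wild type 2.27, SE 0.65, adjusted p = 0.0359 by limma). The arrays of each plasmid strain lay far apart for HSP42, with replicate 2 the higher. HSP82, an Hsp90 chaperone, gave 2423 and 1324 in the double deletion, 1407 and 582 in plus RPL12A, 1106 and 769 in plus RPL12B, and 722 and 303 in the wild type (1.94, SE 0.55, adjusted p = 0.0347), and there replicate 1 was the higher array of every strain. HSP104, which pulls proteins out of aggregates, was higher by 1.30 (SE 0.24, adjusted p = 0.0104), and the mitochondrial HSP78 by 1.25 (SE 0.30, adjusted p = 0.0215). The list was chosen with earlier results known, so these adjusted p-values are a description. With plus RPL12A the chaperones had 0 called higher and 1 lower than in the wild type, beside 2.22% of all genes higher and 95 of 5439 lower. With plus RPL12B they had 1 higher, HSP104 at 1.01 (adjusted p = 0.0453 by limma, called in 9 of 24 alternatives), and 2 lower. All genes called with plus RPL12B were 5.59% higher and 212 of 5439 lower.

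HSF1 gave 704 and 663 in the double deletion, 493 and 499 in plus RPL12A, 554 and 572 in plus RPL12B, and 377 and 363 in the wild type. It was higher in the double deletion by 0.88 (SE 0.11, adjusted p = 0.00447), a call that stood in all 24 alternatives, and in plus RPL12B by 0.61 (adjusted p = 0.0261), a call that stood in 12 of the 24 and in 1 of the 8 that leave out an array. YAP1, an activator of the oxidant response, was higher in the double deletion by 0.71 (adjusted p = 0.0160 by limma) and CRZ1, which answers to calcium, by 0.62 (adjusted p = 0.0167). Here too the adjusted p-values in the double deletion are a description. HSF1, YAP1 and CRZ1 made 3 called genes of 9 other stress activators, beside 20.4% of all genes called higher. The counts were 2 higher and 1 lower after S. cerevisiae median centring, beside 548 and 1206 over all genes. They were 2 and 0 after quantile normalization, beside 397 and 437, and 5 and 0 when scaled to the hybridisation controls, beside 2823 and 65. Of 20 enzymes and regulators of trehalose and glycogen, 3 were higher and 1 lower in the double deletion, with a median of 0.74, and 0 and 1 after quantile normalization, 1 and 1 after S. cerevisiae median centring and 9 and 0 when scaled to the hybridisation controls. Those called in the deposited scaling were ATH1 (1.20, adjusted p = 0.0182) and NTH2 (0.82, adjusted p = 0.0301), which break down trehalose, PIG1 (0.73, adjusted p = 0.0347), a likely regulator of glycogen synthase, and PGM1 (-0.60, adjusted p = 0.0175), a phosphoglucomutase. In plus RPL12A 0 of these 20 were called against the wild type, and in plus RPL12B 0 higher and 1 lower, PGM1, a call that stood in 9 of the 24 alternatives. Over all 5439 genes tested, 121 were called higher and 95 lower in plus RPL12A, and 304 higher and 212 lower in plus RPL12B.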
